A study of Mus musculus with 13 samples.

Results

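The regions described here are the last 2 Mb of the 19 mouse autosomes toward the distal telomere, the chromosome end that lies far from the centromere. Every peak was taken that starts within 2 Mb of the highest peak end on its chromosome in any list, on mouse build mm9. This gave 3318 of the 185431 peaks in 8 deposited lists, or 299, 433, 633 and 521 peaks in the 4 H3K9me3 libraries, 181 and 380 in the 2 untreated H3K27me3 libraries, and 366 and 505 in the 2 H3K27me3 libraries with tamoxifen. The choice used positions only, but the end of each chromosome was itself set by a peak. That peak was an H3K9me3 peak on 17 chromosomes and an H3K27me3 peak on chromosomes 3 and 4. The assembled chromosome ends were not used here.

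Chromatin immunoprecipitation followed by sequencing had been carried out on J1 mouse embryonic stem cells (ES cells) that carry an inducible knockout of Setdb1, grown without feeder cells and with LIF. All groups share this background, so the untreated libraries come from the inducible line without induction. The groups were H3K9me3 without tamoxifen (n = 4), H3K27me3 without tamoxifen (n = 2) and H3K27me3 with 2.5 µM tamoxifen (n = 2), which induces loss of the gene. The peak lists do not measure Setdb1 itself. The protocol names DMSO, the solvent of tamoxifen, as control. H3K9me3 with tamoxifen was not analysed here. Nothing in the labels says that libraries of a group came from separate cultures, so the p-values measure only the spread between these libraries, which may be technical.

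Setdb1 encodes a methyltransferase that places H3K9me3, a mark of constitutively silent chromatin that in ES cells covers endogenous retroviruses and other repeats. H3K27me3 is placed by Polycomb repressive complex 2 and covers the CpG-rich promoters of developmental regulators, with its broadest domains over homeobox gene clusters. Chromatin next to telomeres is often described as repressed in mammals. The distal ends of mouse chromosomes also contain many ordinary genes, so both kinds of silencing can be found there.

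The lists give positions only, without read counts, so the depth of each library is unknown. The first library of each group was processed with another version of the peak caller than the rest, and these sets are called batch 1 and batch 2. Within each group the batch 1 list held the fewest peaks, and for both untreated groups also the widest. In the distal windows the median peak width was 1814 bp in H3K9me3 replicate 1 and 888, 801 and 898 bp in replicates 2 to 4. For untreated H3K27me3 it was 2724 bp in replicate 1 and 924 bp in replicate 2, whereas the tamoxifen libraries had 790.5 and 808 bp. Widths and peak numbers are therefore first compared within a library, against the 10 Mb that precede each window. There the median widths were 1871, 739, 746.5 and 736 bp in H3K9me3 replicates 1 to 4. For H3K27me3 they were 2726 and 767 bp without tamoxifen and 711 and 710.5 bp with it. The distal median was thus slightly lower in replicate 1 of both untreated groups and higher in every other library. The part of read depth or calling in the widths was not tested.

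Over all 19 windows together, H3K9me3 covered somewhat more of the last 2 Mb than of the preceding 10 Mb, in each of the 4 libraries. With ends taken from H3K27me3 lists only, this was not so (log2 ratio -0.04). With the ends as set, it covered 22.0, 16.7, 22.2 and 18.99 kb per Mb in replicates 1 to 4, against 16.6, 13.7, 21.2 and 14.5 kb per Mb before the window. The ratio was thus above 1 in 4 of 4 libraries, but in replicate 3 it was only 1.05. The mean log2 ratio was 0.29 ± 0.16 (SD, n = 4; two-sided exact permutation test by sign flips, p = 0.125, the smallest p that 4 libraries allow). Against the whole chromosome the mean log2 ratio was 0.13 ± 0.08 (SD, n = 4), so the distal level lay close to that of the chromosome. The number of H3K9me3 peaks did not follow. There were 7.87, 11.4, 16.7 and 13.7 peaks per Mb in the windows and 5.75, 12.2, 18.4 and 13.1 before them, higher in 2 libraries and lower in 2 (mean log2 ratio 0.07 ± 0.27 SD, n = 4; exact permutation p = 0.875).

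H3K27me3 covered 18.8 and 21.1 kb per Mb of the windows in the untreated libraries, and 18.1 and 23.5 kb per Mb in the tamoxifen libraries. The preceding 10 Mb held 13.3 and 16.8 kb per Mb without tamoxifen and 12.5 and 21.6 with it. The distal value was higher in 4 of 4 libraries, by a mean log2 ratio of 0.37 ± 0.19 (SD, n = 4; exact permutation p = 0.125, the smallest p possible). It was 0.41 ± 0.12 without tamoxifen and 0.33 ± 0.29 with it (SD, n = 2 for each). Here and below, H3K27me3 values with n = 4 pool libraries with and without tamoxifen, so their SD and p mix both states. The increase over all 4 libraries rested on chromosome 15. Without that chromosome the mean log2 ratio was -0.06, and the median over chromosomes in place of the sum gave -0.59. Without chromosomes 8 and 15, the lowest and the highest, it was 0.13.

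Set against the whole chromosome and summed over autosomes, distal H3K27me3 was higher by a wider margin. The whole-chromosome level was 10.0 and 11.7 kb per Mb without tamoxifen and 9.40 and 13.5 with it, a mean log2 ratio of 0.88 ± 0.07 (SD, n = 4; exact permutation p = 0.125). Without chromosome 15 it was 0.39 ± 0.03 (SD, n = 4). The mean over libraries was above the level of the chromosome on 9 chromosomes and below it on 10, with a median of -0.32 over chromosomes, so the sum does not describe the typical window. The distal windows make up 1.57% of the mapped span and held 2.96% and 2.83% of the autosomal H3K27me3 bases without tamoxifen and 3.03% and 2.74% with it. For H3K9me3 these shares were 1.77%, 1.79%, 1.57% and 1.74%. On the summed measure the untreated groups did not overlap, and H3K9me3 lay below H3K27me3 by 0.75 on the log2 scale (exact permutation of 4 against 2 libraries, p = 0.133, the smallest p possible). The order turned with the median over chromosomes, which was 0.04 for H3K9me3 and -0.25 for untreated H3K27me3. Against the preceding 10 Mb the marks could not be told apart, with a difference of -0.12 on the log2 scale (exact permutation p = 0.4).

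Within the windows, H3K9me3 was concentrated at the very end of the chromosomes. In the last 100 kb it covered 86.6, 96.6, 97.9 and 105 kb per Mb in replicates 1 to 4, so all 4 libraries lay together and far above the 13.7 to 21.2 kb per Mb of the preceding 10 Mb. This is 5.22, 7.04, 4.61 and 7.24 times the preceding level (mean log2 ratio 2.57 ± 0.32 SD, n = 4; exact permutation p = 0.125, the smallest p possible). The mean then fell to 28.5 ± 4.96 kb per Mb between 100 and 500 kb, 12.8 ± 3.61 between 500 kb and 1 Mb and 12.5 ± 2.38 between 1 and 2 Mb, against 16.02 ± 3.24 between 2 and 5 Mb (SD, n = 4 for each). From 500 kb to 2 Mb the level was below that of the preceding 10 Mb in all 4 libraries, at 0.87, 0.70, 0.70 and 0.80 times that level. The last 500 kb held 53.0% ± 3.39 (SD, n = 4) of the H3K9me3 bases in the 2 Mb.

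**Figure D1:**
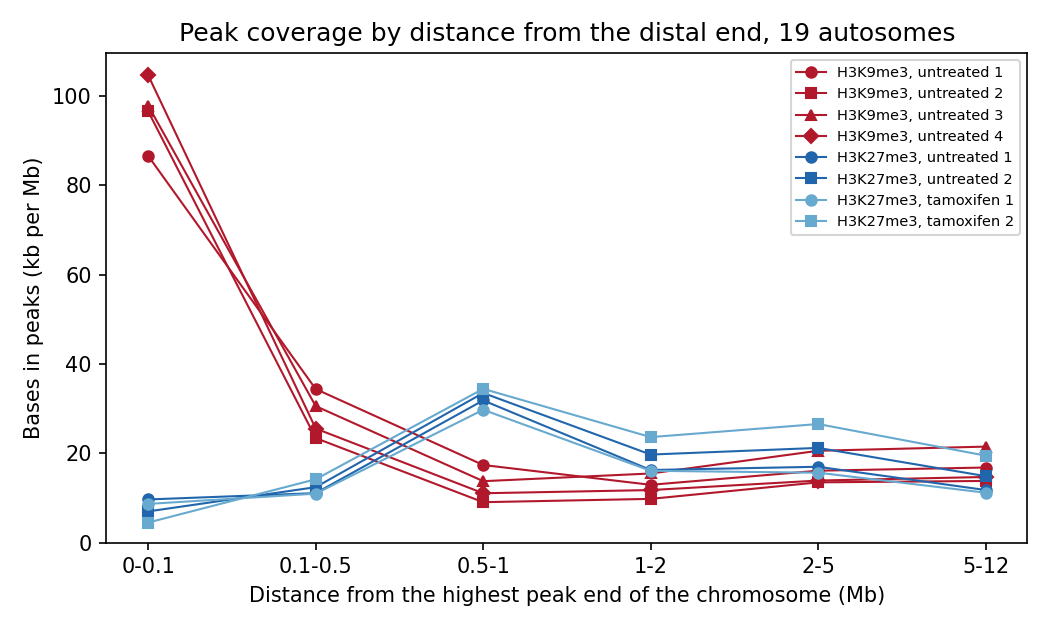
Bases covered by peaks (kb per Mb, y axis) in 6 bins of distance from the highest peak end (Mb, x axis, bins not to scale), summed over 19 autosomes, with 1 line per library. The 4 H3K9me3 lines start between 86.6 and 105 kb per Mb and lie below 18 between 500 kb and 2 Mb. Beyond 2 Mb the line of H3K9me3 replicate 3 is at 20.6 and 21.5. The 4 H3K27me3 lines start below 10 and peak between 500 kb and 1 Mb.

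H3K27me3 had no such maximum at the end. In the last 100 kb it covered 9.66 and 6.99 kb per Mb without tamoxifen and 8.67 and 4.49 kb per Mb with it, below the preceding level in 4 of 4 libraries (mean log2 ratio -1.13 ± 0.84 SD, n = 4; exact permutation p = 0.125). The whole-chromosome levels were 10.0 and 11.7 kb per Mb without tamoxifen and 9.40 and 13.5 with it. Against these, the last 100 kb was close to the chromosome in the batch 1 libraries and lower in those of batch 2. The untreated mean rose to 11.7 kb per Mb between 100 and 500 kb and to 32.7 between 500 kb and 1 Mb. Without chromosome 15 the untreated mean of that bin was 12.5 kb per Mb, and the highest of the 4 bins lay between 1 and 2 Mb, at 17.4 kb per Mb. The last 500 kb held 13.8% ± 0.71 (SD, n = 4) of the H3K27me3 bases in the 2 Mb. In the last 100 kb the untreated marks differed by 3.43 on the log2 scale, with no overlap between the groups (exact permutation of 4 against 2 libraries, p = 0.133, the smallest p possible). Most ends had been set by an H3K9me3 peak, so this p-value does not compare the marks on equal terms.

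Because an H3K9me3 peak set most ends, the same measure was taken with other ends. With the ends taken from H3K27me3 lists only, the H3K9me3 log2 ratio was 1.27, still above 0 in each library, and that of H3K27me3 was 0.08 in place of a negative value. With the last 10 kb left out it was 2.37 for H3K9me3 and -1.58 for H3K27me3. Hence the height of the H3K9me3 maximum depends on where the end is set, and the low H3K27me3 value does too. Summed over the autosomes, H3K9me3 lay above the preceding 10 Mb with every end tried. With ends from H3K27me3 lists, however, the median chromosome held 17.6 kb per Mb of H3K9me3 in its last 100 kb. Only chromosomes 2, 4 and 6 were then at least 2-fold above their preceding level in every library. The sum therefore does not describe the typical chromosome end.

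The terminal H3K9me3 was spread over nearly all chromosomes, though on 17 of them an H3K9me3 peak of at least 1 library is there by the rule. All 4 libraries had some of it in the last 100 kb of 18 of the 19 autosomes, the exception being chromosome 7, where replicates 1 and 2 had 0.665% and 0.419% of the bases covered and replicates 3 and 4 had 0%. Chromosome 16 was the highest, with 24.6%, 46.1%, 39.9% and 43.2% of its last 100 kb in peaks. Chromosomes 4, 11 and 1 followed, with means of 22.7% ± 6.73, 18.4% ± 8.28 and 18.2% ± 5.51 (SD, n = 4 for each), which overlap one another. Chromosomes 12 and 3 were low, at 1.30% ± 0.87 and 1.76% ± 1.33 (SD, n = 4 for each). On chromosome 13 the libraries differed little, at 7.02%, 7.16%, 7.08% and 7.11%. H3K27me3 in turn was found by all 4 libraries on 4 chromosomes (3, 4, 12 and 14) and by none on 9, and its highest value was 6.60% on chromosome 4. Over all 21858 windows of 100 kb along the autosomes, the median of untreated H3K27me3 was 0 kb per Mb. A last window without this mark was therefore not unusual. The share of all windows held by every library was not counted for either mark.

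**Figure D2:**
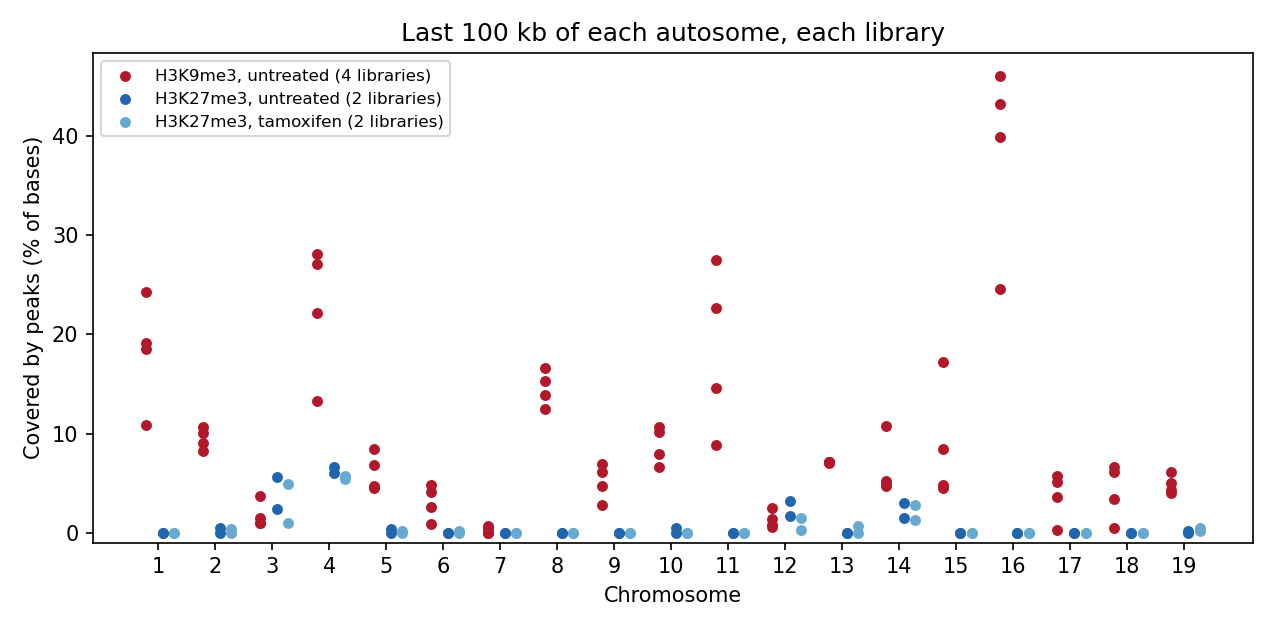
Share of the last 100 kb covered by peaks (percent, y axis) on each autosome (x axis), with 1 point per library. H3K9me3 points (red) reach 46.1% on chromosome 16, and H3K27me3 points (blue, untreated dark and tamoxifen light) do not exceed 6.60%.

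A window of 100 kb was called high if every untreated library of a mark covered it at least 2-fold more than the 10 Mb before it. Of 21858 windows laid along the autosomes, 9.43% met this for H3K9me3, against 11 of the 19 last windows (chromosomes 1, 2, 4, 8, 10, 11, 13, 14, 15, 16 and 19). The last windows were placed on a peak and the others were not, so the shares are not like for like. With the last 10 kb left out 7 were called, and with ends from H3K27me3 lists only 3 were (chromosomes 2, 4 and 6). With the ends as set, the median last window held 64.2 kb per Mb of H3K9me3 (17.6 with ends from H3K27me3 lists) and the median of all windows 5.05. Of the 19, 13 were among the highest 10% of all windows and 5 among the highest 1%. For H3K27me3, 11.7% of all windows and 2 of the last 19 (chromosomes 3 and 4, the ends that an H3K27me3 peak had set) were called, a share near the background.

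Chromosome by chromosome, the 2 Mb windows divided the marks. H3K9me3 was above the preceding 10 Mb in all 4 libraries on 10 chromosomes and below in all 4 on 4, with a median log2 ratio of 0.24. Of 1105 windows of 2 Mb laid back from the end along every autosome, 30% were above and 41.7% below in this sense, with a median of -0.19. H3K27me3 was above in all 4 libraries on 7 chromosomes and below in all 4 on 11, with a median of -0.57. Of all windows 35.5% were above and 49.5% below for H3K27me3, with a median of -0.32, so a value below the preceding level was common for this mark anywhere. On 11 chromosomes every library of one mark lay on the other side of the preceding level from every library of the other, as in 33.3% of all windows. H3K9me3 was the higher mark in 8 of these and H3K27me3 in 3 (chromosomes 2, 7 and 15).

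**Figure D3:**
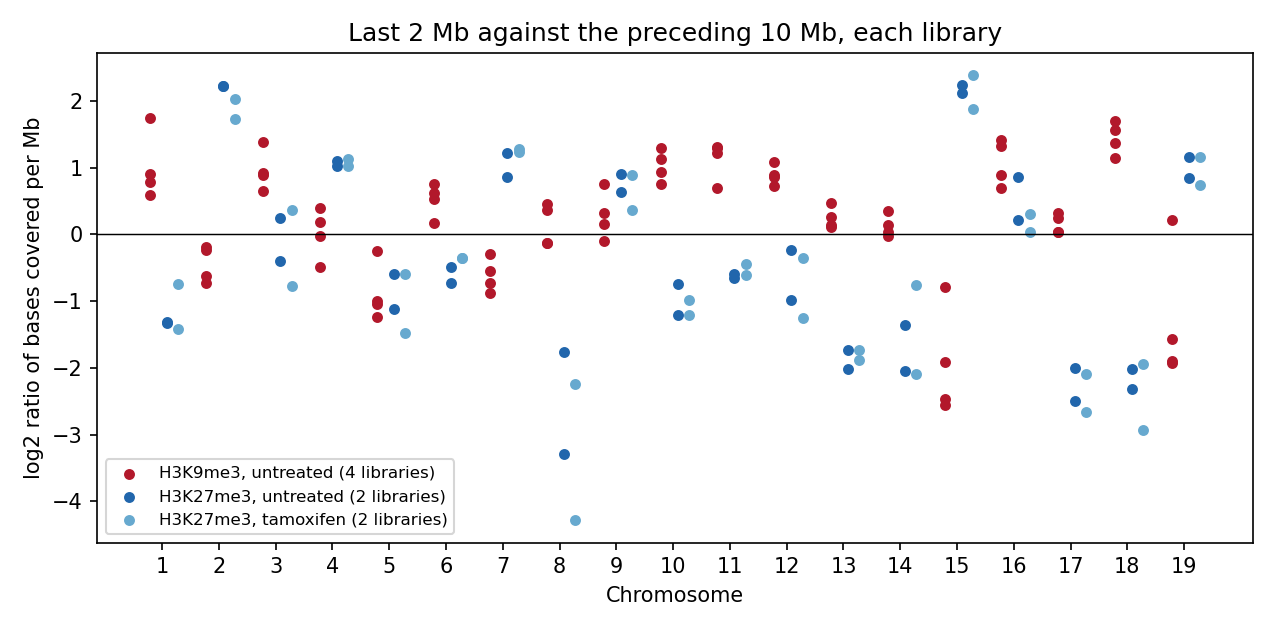
Log2 ratio of bases covered per Mb in the last 2 Mb to the preceding 10 Mb (y axis) for each autosome (x axis), with 1 point per library and a line at 0. H3K9me3 (red) is highest on chromosome 18 and lowest on 15, and H3K27me3 (blue, untreated dark and tamoxifen light) is highest on 15 and 2 and lowest on 8.

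The H3K9me3 ratio was highest on chromosomes 18, 11 and 16. On chromosome 18 the window held 25.2, 15.98, 21.5 and 20.9 kb per Mb against 9.66, 5.35, 9.70 and 6.36 before it (mean log2 ratio 1.44 ± 0.24 SD, n = 4). The means on chromosomes 11 and 16 were 1.13 ± 0.29 and 1.08 ± 0.35 (SD, n = 4 for each). Chromosome 18 was the highest of these 3 in every library, whereas the order of 11 and 16 differed between libraries. These differences were not tested. The lowest ratios were on chromosomes 15 (-1.93 ± 0.81), 19 (-1.29 ± 1.02) and 5 (-0.89 ± 0.43; SD, n = 4 for each). On chromosome 19, H3K9me3 replicate 1 had 12.0035 kb per Mb and the others 2.58, 3.88 and 3.67, and only replicate 1 lay above its preceding level. Chromosome 10 had the highest level of H3K9me3 in its window, 38.4 ± 6.05 kb per Mb (SD, n = 4), rank 3 among its 58 windows of 2 Mb. In the RefSeq gene table, which is built on GRCm38.p6, 53 of the last 60 protein-coding genes of chromosome 10 are olfactory receptor genes and 4 are vomeronasal receptor genes. These receptors are large families of chemosensory genes, expressed in sensory neurons of the nose. No other autosome had an olfactory receptor among its last 60 genes. Chromosome 4 and chromosome 5, the latter among the lowest by H3K9me3 ratio, had 1 vomeronasal receptor gene each. Gene positions were not compared with the peaks, since the builds differ.

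H3K27me3 was far more uneven. Chromosomes 15, 7 and 2 held 56.4% of all distal H3K27me3 bases, and chromosome 15 alone held 32.5%. The top 3 chromosomes of H3K9me3 held 26.9%. On chromosome 15 the window held 121.8 and 127.5 kb per Mb without tamoxifen and 117.8 and 135.8 with it, against 22.5 to 36.8 before it, and it ranked first of 45 windows of that chromosome. The mean log2 ratio was 2.15 ± 0.21 (SD, n = 4). Chromosome 2 followed with 2.05 ± 0.23 and chromosome 7 with 1.15 ± 0.20 (SD, n = 4 for each), so chromosomes 15 and 2 overlap and 7 lies below them. At the other end, chromosome 8 held 6.40 and 4.13 kb per Mb without tamoxifen and 5.75 and 3.48 with it, against 21.9, 41.1, 27.6 and 69.5 before it. Its mean log2 ratio was -2.89 ± 1.12, and those of chromosomes 17 and 18 were -2.32 ± 0.32 and -2.30 ± 0.45 (SD, n = 4 for each). The order of these 3 differed between libraries.

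The same 1105 windows give the background for larger differences. At least 2-fold above the preceding 10 Mb in every library of a group were 5.52% of windows for H3K9me3, and 1 of the 19 distal ones (chromosome 18). At least 2-fold below were 11.8%, and none of the 19. For untreated H3K27me3, 18.1% of windows were 2-fold higher and 32.5% 2-fold lower, against 3 (chromosomes 2, 4 and 15) and 6 (chromosomes 1, 8, 13, 14, 17 and 18) of the distal ones. With tamoxifen the backgrounds were 19.1% and 32.9%, against 4 (chromosomes 2, 4, 7 and 15) and 5 (chromosomes 8, 10, 13, 17 and 18). Differences of this size were therefore about as frequent in distal windows as elsewhere for H3K27me3 and, in the upward direction, for H3K9me3. In level, 15 of the 19 distal windows lay above the median of all windows for H3K9me3 (medians 19.8 and 13.3 kb per Mb).

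Merging the touching or overlapping peaks of the 4 H3K9me3 libraries gave 761 distal regions, of which 161 were held by all 4 libraries. This is 21.2% of the distal regions and the same 21.2% among all 50019 autosomal ones. The distal regions held by all had a median width of 3361 bp (3337 bp for all 10588). Of the distal ones 23, or 14.3%, were 10 kb or wider, against 6.66% of all. Chromosome 10 had the most, with 18, and chromosome 19 the fewest, with 1. Without replicate 1, which has the fewest peaks, the other 3 libraries held 304 in common. The libraries overlapped to a like degree in the windows as elsewhere, with pairwise Jaccard indices (shared bases over bases in either list) of 0.2998 to 0.520, and 0.310 to 0.503 over all autosomes.

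The widest distal H3K9me3 region spanned 49731 bp at chr4:155508447-155558177, 71.9 kb from the end, and was the second widest in the whole set. Peaks covered 65.6%, 82.4%, 73.8% and 81.3% of it in replicates 1 to 4, so no library stood apart. In the gene table the last protein-coding gene of chromosome 4 is Vmn2r129, which encodes a vomeronasal receptor. This gene was picked after the region had been seen, and whether it lies in the region was not tested. The next widest was 16450 bp at chr11:120180533-120196982, 1647 kb from the end, covered to 92.9% in replicate 1 and to 60.2%, 60.0% and 58.7% in the others. A region of 15338 bp at chr6:149302913-149318250 was covered to between 71.1% and 90.9%, and one of 14843 bp at chr1:197077797-197092639 to between 54.3% and 95.6%. The other 4 of the 8 widest were 13471 bp at chr9:122760302-122773772, 13280 bp at chr11:121802955-121816234, 12818 bp at chr4:155049101-155061918 and 12295 bp at chr16:98227936-98240230. The chr11 region nearest the end was held unevenly, with 14.2%, 78.8%, 48.5% and 84.5% of it covered. Of these 8 regions, 5 lie within 130 kb of their chromosome end.

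The H3K9me3 region held by all libraries lay at the very end of chromosomes 1, 2, 9, 10 and 13. On chromosome 13 it was 7168 bp wide at chr13:120277128-120284295 and covered to 94.5% to 99.9%. On chromosome 10 it was 11201 bp wide at chr10:129981907-129993107 and covered to only 50.5% to 54.3%. Across the autosomes the distance from the end to the nearest such region had a median of 27.7 kb and a maximum of 230 kb. For H3K27me3 regions held by all 4 of its libraries the median was 329 kb and the maximum 1667 kb. The H3K9me3 region was the nearer on 16 of 19 chromosomes, and within 100 kb of the end on 14 against 4. The end itself is the last peak of either mark, so a distance of 0 follows from the rule. That peak was an H3K9me3 peak on 17 chromosomes. Over all autosomes H3K9me3 regions held by all were also denser, at 4.38 per Mb against 1.97 for H3K27me3. The distances of the marks are therefore not like for like, and they were not measured with other ends.

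**Figure D4:**
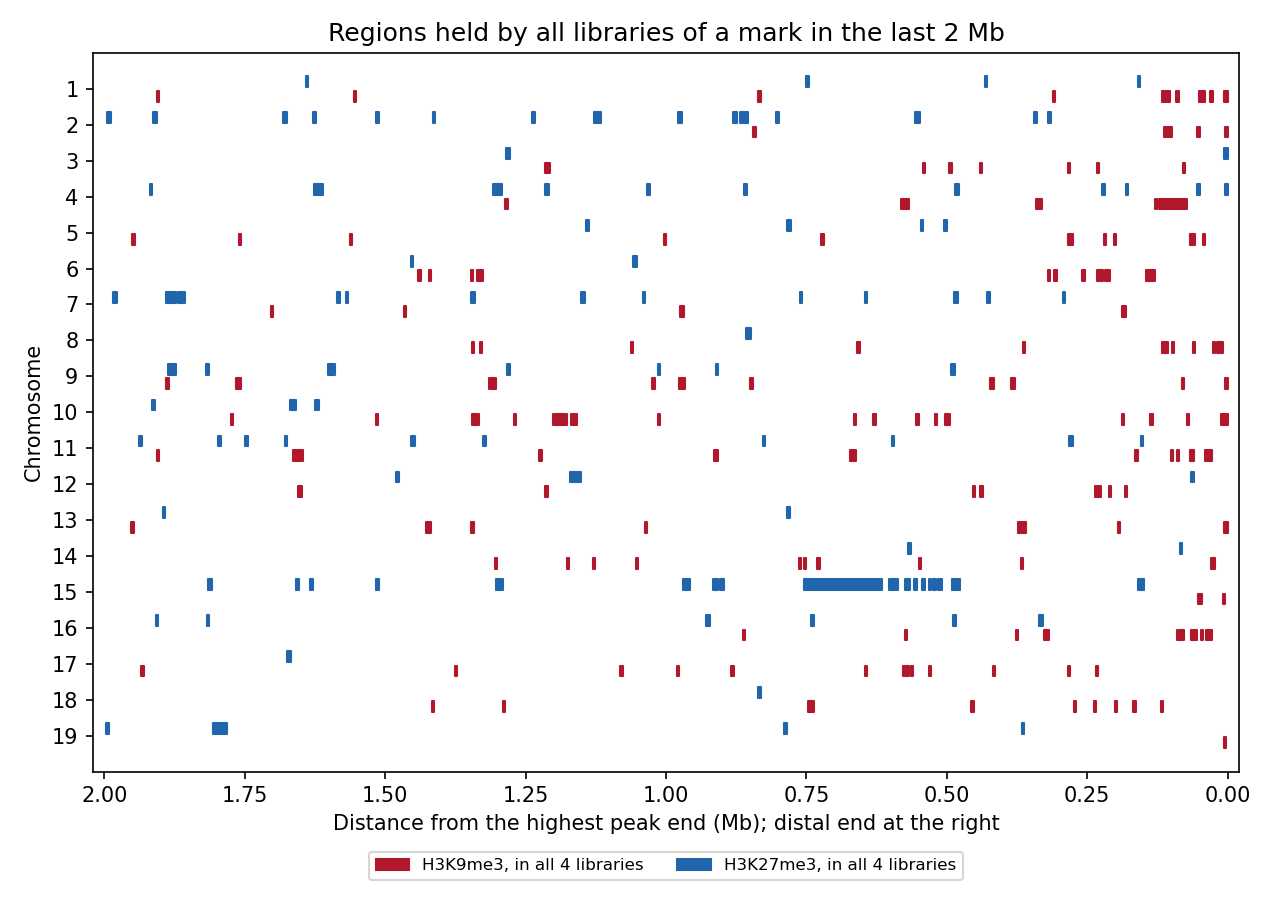
Regions held by all 4 libraries of a mark (H3K9me3 red, H3K27me3 blue) on each autosome (y axis) by distance from the highest peak end (Mb, x axis, distal end at the right); very narrow regions are drawn with a minimum width. H3K9me3 regions crowd toward the right edge, and the widest block is the H3K27me3 domain of 121997 bp on chromosome 15.

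For H3K27me3 the 4 libraries gave 695 distal regions, and 124 of them, 17.8%, were held with and without tamoxifen by every library, against 15.2% of all 31429 autosomal regions. These are called kept. Their median width was 5044.5 bp (4658.5 bp for all 4768), and 11 were 10 kb or wider (8.87% against 10.4%). Chromosome 15 had 24, chromosome 2 had 18 and chromosome 7 had 13, whereas chromosomes 8, 17 and 18 had 1 each.

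The widest kept region spanned 121997 bp at chr15:102751578-102873574, 615 kb from the end, and was the second widest in the genome. It was covered to 99.6% and 98.1% without tamoxifen and to 98.1% and 97.0% with it, nearly without a gap in any library. Regions of 12791 bp (chr15:102738091-102750881) and 15919 bp (chr15:102885788-102901706) lie on its sides. In the gene table the HoxC cluster, homeobox genes that pattern the body axis, takes the places from 24 (Hoxc13) to 16 (Hoxc4) counted from the distal end among protein-coding genes of chromosome 15. The next widest was 25403 bp at chr19:59523352-59548754, covered to between 83.7% and 100%. The table lists Emx2, a homeobox gene of forebrain development, 14 genes from the end of chromosome 19.

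On chromosome 12 a kept region of 19931 bp at chr12:120075277-120095207 was covered to between 86.0% and 98.3%, and the table places Sp8, a zinc finger factor of limb outgrowth, 5 genes from that end. Chromosome 7 had a pair of kept regions near each other, 17743 bp at chr7:150618754-150636496 and 12601 bp at chr7:150640740-150653340. The first was covered to 62.5% and 90.8% without tamoxifen and to 76.7% and 92.3% with it, lower in the first library of each group. The distal genes of chromosome 7 include the imprinted genes Kcnq1, Cdkn1c and Phlda2, at places 29, 28 and 26 from the end, and the growth factor genes Fgf3, Fgf4 and Fgf15 at 9, 8 and 7. On chromosome 4 the widest kept region was 15620 bp at chr4:154003794-154019413, and the table lists Prdm16 and Hes5, a Notch target, at places 58 and 52. These genes were picked from the table after the regions had been seen, and whether they lie in them was not tested.

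Kept regions at the end itself were found on chromosomes 3 and 4 only, where an H3K27me3 peak set the end. That on chromosome 3, 5923 bp at chr3:159499907-159505829, was held very unevenly, with 94.7% and 41.0% covered without tamoxifen and 83.2% and 8.07% with it. That on chromosome 4, 1572 bp at chr4:155628494-155630065, was covered to at least 83.0% in every library.

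With 2 libraries against 2, no difference between libraries with and without tamoxifen could pass a test. The log2 ratio of bases to the preceding 10 Mb was 0.49 and 0.33 without tamoxifen and 0.53 and 0.12 with it. The groups overlapped, and the mean difference was -0.09 (two-sided exact permutation of 2 against 2, p = 1; the smallest p possible is 0.333). Within batch 1 the difference was 0.04 and within batch 2 it was -0.21, so the direction was not shared. For peaks per Mb the difference was -0.13 (exact permutation p = 0.667), and it was below 0 within both batches (-0.10 and -0.16). Distal peaks were more numerous with tamoxifen within both batches, by 185 and 125, and the groups overlapped (exact permutation p = 0.667). Their median width was lower within both (differences of -1933.5 and -116 bp), and the groups did not overlap (exact permutation p = 0.333, the smallest p possible). The lists as a whole also held more peaks with tamoxifen, 15116 and 22265 against 7041 and 17094. Over the whole autosomes the median width was likewise lower with tamoxifen, at 731 and 725 bp against 2526 and 783 bp, without overlap. The lower width was therefore not particular to the distal windows. The part of depth or calling in either was not tested. For bases in the last 100 kb against the preceding 10 Mb, the tamoxifen difference in the log2 ratio was -0.53 (exact permutation p = 0.667). It was -0.07 within batch 1 and -1.002 within batch 2.

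Of the 695 distal regions, 18 were gained, that is, held by both tamoxifen libraries and by neither untreated one, and 2 were lost in the same sense. These are 2.59% and 0.288% of the distal regions, against 2.18% and 0.277% of all autosomal ones, so distal regions were gained and lost about as often as others. More distal regions were held only by replicate 2 of both groups (47) than only by both tamoxifen libraries (18) or both untreated ones (2). Among all 31429 autosomal regions these counts were 2280, 685 and 87, so this order was not particular to the distal windows. Chromosome 7 held 8 of the 18 gained regions and both lost ones, so 10 gained and 0 lost remained without it. With untreated replicate 1 or 2 left out, 22 or 55 regions counted as gained and 108 or 12 as lost, and with tamoxifen replicate 1 or 2 left out, 250 or 115 and 5 or 10. Both classes thus depend on the lists used, and each setting leaves 1 list in a group.

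The widest gained region was 4545 bp at chr15:103367127-103371671, 117 kb from the end, covered to 100% and 37.1% in the tamoxifen libraries, and it was the widest gained region of all autosomes. Next came 2793 bp at chr7:150686235-150689027, covered to 72.5% and 94.1%. The others of the 5 widest were 1828 bp at chr7:150542596-150544423, 1462 bp at chr4:153707322-153708783 and 1448 bp at chr7:150566231-150567678. The lost regions were 1532 bp at chr7:150521661-150523192 and 1478 bp at chr7:151745975-151747452. Gained and lost regions were thus small beside the kept domains.

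Inside the 124 kept regions peaks covered 83.2% and 78.9% of the bases without tamoxifen and 71.7% and 78.3% with it. Coverage was lower with tamoxifen within batch 1 in 96 regions (3707 of all 4768 kept regions), within batch 2 in 67 (2389 of all) and in both batches in 56, or 45.2%, against 39.7% of all. It was higher in both batches in 17, or 13.7%, against 11.8% of all. In the 11 regions of 10 kb or wider, coverage was 93.8% and 91.2% without tamoxifen and 89.6% and 90.4% with it. Over all 494 kept regions of that width it was 87.8% and 85.4%, and 76.4% and 82.3%. Peaks thus covered most of the bases of these 11 regions in every library. These are shares of pooled bases, so the chromosome 15 region of 121997 bp, covered to between 97.0% and 99.6%, weighs most among the 11. The shares without it were not computed. Kept regions are held by every library by definition, so these shares do not show whether wide domains remained with tamoxifen.

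The marks hardly met in the distal windows. Both untreated libraries had H3K27me3 in 139 distal regions, and 1 of these overlapped an H3K9me3 region held by all 4 libraries. This is 0.719% (exact Clopper-Pearson 95% interval 0.0182% to 3.94%, for counting error only) against 0.69% of 5359 autosomal regions. It spans 2427 bp at chr9:122191646-122194072 and shares 597 bp with the H3K9me3 region chr9:122185301-122192242. Pairwise Jaccard indices between lists of different marks were at most 0.00206 in the windows, against 0.502 to 0.628 between H3K27me3 lists. At the inner border of the windows, 58 H3K9me3 peaks started in the first 100 kb inside and 79 in the last 100 kb outside, and for H3K27me3 142 and 65 did.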

How the data were processed

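Reads had been placed on mm9 with Bowtie 0.12.7 and peaks called with MACS2, version 2.0.10 for replicate 1 of each group (batch 1) and 2.1.0 for the others (batch 2), per the submitters' processing notes. How MACS2 was set and which control it was given is not stated in those sources. The authors deposited 1 list of peaks per library, whose other columns beside the chromosome are start and end positions in bp, and no score, signal or count. Lists were used for 8 of 13 samples, and the 5 inputs were not used here. The antibody entry of H3K9me3 replicate 4 reads none, and its title decided its group. The first libraries carry no number and were numbered 1. No pair of lists shared more than 1 identical peak.

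Peaks were assigned to a window of 2 Mb by their start, positions are printed counting from 1, and bases are the summed widths of a list's peaks. For windows of 100 kb only the bases inside the window were counted. Log2 ratios of single chromosomes and windows used a pseudocount of 0.1 kb per Mb, and those of all autosomes summed used none. Regions are merged peaks of the libraries of a mark, held by a library with at least 1 bp. Group means were compared by exact permutation over libraries. Scripts ran under Python 3.11.15 (SciPy 1.17.1, pandas 2.3.3, NumPy 2.4.6), and Matplotlib 3.10.9 drew the plots. The code was tested on simulated peaks. The text names the 8 widest regions of each mark, the 5 widest gained and lost, those nearest an end or with both marks, and the 3 highest and lowest chromosomes by log2 ratio; other chromosomes were named after their values were seen. The members and lists were chosen with earlier results of these data known, and the measure of the last 100 kb and the gene names were chosen after the distance profile and the regions had been seen. Gene names and their order come from a RefSeq table on GRCm38.p6, none of whose positions were used.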

Additional observations from a re-analysis of the deposited data

Results flagged for a closer look

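In 2 of 17 sets of 4 libraries that were checked for a library apart, H3K9me3 replicate 1 stood apart, and chance does so in about 1 set in 20. Its median distal peak width was 1814 bp, with the next library at 898 bp, and its coverage of the 16450 bp region on chromosome 11 was 92.9%, with the next at 60.2%. It is the only H3K9me3 library of batch 1, so library and batch cannot be told apart.

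On 11 chromosomes the marks moved to opposite sides of the preceding 10 Mb in all their libraries, which was not tested per chromosome. The difference in the log2 ratio of bases, H3K9me3 minus untreated H3K27me3, was 2.32 on chromosome 1, 1.13 on 6, 2.00 on 10, 1.75 on 11, 1.501 on 12, 2.12 on 13, 2.41 on 17 and 3.61 on 18. It was -2.66 on chromosome 2, -1.65 on 7 and -4.11 on 15. In the last 100 kb of all autosomes it was 3.43 (exact permutation p = 0.133). An H3K9me3 peak had set the end on 17 chromosomes, so this difference is partly fixed by the rule. The p-value therefore does not compare the marks on equal terms. The measure was also chosen after the distance profile had been seen. With ends from H3K27me3 lists only, the log2 ratio was 1.27 for H3K9me3 and 0.08 for H3K27me3, the latter with and without tamoxifen pooled.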

How the results depend on the processing

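Depth is unknown, and no test here can reach 0.05, so an unchanged direction says little of stability. Summed over the autosomes, the last 100 kb was above the preceding level for H3K9me3 in all 11 alternatives tried. Other directions turned, and beyond what each setting leaves out the cause was not tested. For H3K27me3, bases turned to -0.59 with the median over chromosomes and -0.059 without chromosome 15 (added after seeing the data), the last 100 kb to 0.080 with ends from H3K27me3 lists, the ratio of bases to the whole chromosome to -0.32 with the median, and peaks to -0.12 in the last 1 Mb, -0.021 against 5 Mb, -0.33 with the median, -0.072 without chromosome 15 and -0.11 in batch 2. For H3K9me3, ends from H3K27me3 lists gave -0.042 for bases and -0.20 for peaks, and batch 2 gave -0.059 for peaks. The difference between marks (log2) in bases turned to 0.30 in the last 1 Mb, 0.017 against 5 Mb, 0.87 with the median, 0.37 without chromosome 15, 0.23 without 8 and 15 and 0.042 with equal numbers of widest peaks. In peaks it turned to 0.48, 0.028 and 0.39 under the first 3 of these settings, 0.12 without chromosome 15, 0.047 without chromosome 4, 0.11 with widest peaks and 0.12 in batch 1. The tamoxifen difference in bases turned to 0.051 with the median and 0.038 in batch 1, and a replicate block of within-batch pairs left it at -0.09 (p = 1; for peaks -0.13, exact permutation p = 0.5).

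With 50% coverage required of each library, 64 H3K9me3 regions were held by all, and 71 kept, 9 gained and 8 lost for H3K27me3. Peaks of 500 bp or more gave 10 gained and 4 lost, and merging over 1 kb 1 lost. The last 1 Mb had 63 kept, 4 gained and 1 lost, and the last 5 Mb 384 held, 306 kept, 51 gained and 4 lost. At least 2 libraries held 443 H3K9me3 regions. Of the last windows of 100 kb, ends from H3K27me3 lists gave 3 called for H3K9me3, ends from H3K9me3 lists 0 for H3K27me3, and the last 10 kb left out 7 and 1. Without chromosome 7, 10 were gained and 0 lost. With any single library left out, fewer lists have to agree, and this gave 164 to 304 held, 127 to 165 kept, 22 to 250 gained and 5 to 108 lost. The same left 0.25 to 0.36 for H3K9me3 bases, -0.059 to 0.14 for its peaks, 0.31 to 0.45 for H3K27me3 bases and 0.0061 to 0.18 for its peaks. It left -0.21 to -0.04 and -0.27 to 0.10 for the difference between marks (bases, peaks), -0.29 to 0.12 and -0.34 to 0.086 for tamoxifen, and 2.47 to 2.69 and -1.35 to -0.75 for the last 100 kb of H3K9me3 and H3K27me3.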

Other observations

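The X chromosome was outside the rule. In its last 2 Mb, H3K9me3 covered 15.1, 6.52, 3.45 and 9.75 kb per Mb in replicates 1 to 4, against 10.7, 2.20, 5.08 and 2.90 in the preceding 10 Mb. Replicate 3 was lower at the end and the others were higher. H3K27me3 covered 9.85 and 6.27 kb per Mb without tamoxifen and 7.01 and 6.72 with it, against 1.84, 1.25, 1.36 and 1.63 before the window, and was higher at the end in all 4 libraries. These windows held 9 to 18 H3K9me3 peaks and 5 to 11 H3K27me3 peaks per library.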
